A study of Mus musculus with 6 samples.

Results

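Metallothioneins and the Slc30a zinc transporters, the proteins that bind zinc in the cell and carry it out of the cytosol, were examined in the brains of mice lacking melanotransferrin. The set held 10 genes chosen by name: the metallothioneins Mt1, Mt2 and Mt3, the zinc-sensing transcription factor Mtf1, and the transporters Slc30a1, Slc30a3, Slc30a4, Slc30a5, Slc30a7 and Slc30a9. Every probe set annotated to exactly 1 of these symbols was taken, with no filter on dim signals, which gave 17 of the 45037 probe sets on the Affymetrix mouse GeneChip used. Of these genes 6 had 1 probe set and 4 had several.

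Total RNA came from the whole brains of 6 female littermates aged 123 days, with 1 array per mouse. The 4 knockout mice (MTf -/-, strain given as C57BL/6 - Lucy) were compared with 2 wild-type mice (MTf +/+, strain given as C57BL/6). Neither the word Lucy nor the deleted part of the gene is explained in the sources used here. The arrays are numbered in the order of deposit, which only names them. In bulk tissue, fewer cells of a type and less RNA per cell cannot be told apart.

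Metallothioneins are small cysteine-rich proteins that hold zinc and copper. Mt1 and Mt2 are switched on by zinc, through Mtf1, and also by glucocorticoids and inflammation, and in brain they are mostly made by astrocytes, whereas Mt3 is typical of the nervous system and is made by neurons as well. Mtf1 binds metal response elements in the promoters of Mt1, Mt2 and Slc30a1. Of the Slc30a family, Slc30a1 exports zinc across the plasma membrane, and the other members studied move it from the cytosol into vesicles or organelles, or in the case of Slc30a9, from work in human cells, out of mitochondria.

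The promoters of the 3 metallothionein genes and of Slc30a1 are shown because these are the genes through which Mtf1 is best known. The sequences are from RefSeq on GRCm38.p6 and run from 250 bases before the annotated start to 50 bases after it. All 10 genes had an entry, Slc30a3 with 2 windows. Capitals mark matches on either strand to the core letters of the metal response element, TGCACNC or TGCGCNC, and no match overlapped another.
Mt1, chr8:94178839-94179138, plus strand: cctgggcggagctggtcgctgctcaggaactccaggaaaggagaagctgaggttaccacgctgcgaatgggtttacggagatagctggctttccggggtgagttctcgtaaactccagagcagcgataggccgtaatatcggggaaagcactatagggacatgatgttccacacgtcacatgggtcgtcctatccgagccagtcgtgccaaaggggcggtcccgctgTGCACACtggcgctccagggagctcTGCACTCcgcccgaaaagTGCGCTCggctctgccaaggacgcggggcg
Mt2, chr8:94172368-94172667, plus strand: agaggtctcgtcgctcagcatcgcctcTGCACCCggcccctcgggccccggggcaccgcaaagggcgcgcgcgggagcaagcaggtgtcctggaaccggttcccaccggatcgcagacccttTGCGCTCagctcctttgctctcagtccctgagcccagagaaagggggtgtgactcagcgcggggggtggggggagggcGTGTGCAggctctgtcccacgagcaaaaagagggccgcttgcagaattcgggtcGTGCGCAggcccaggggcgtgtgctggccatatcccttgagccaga
Mt3, chr8:94152357-94152656, plus strand: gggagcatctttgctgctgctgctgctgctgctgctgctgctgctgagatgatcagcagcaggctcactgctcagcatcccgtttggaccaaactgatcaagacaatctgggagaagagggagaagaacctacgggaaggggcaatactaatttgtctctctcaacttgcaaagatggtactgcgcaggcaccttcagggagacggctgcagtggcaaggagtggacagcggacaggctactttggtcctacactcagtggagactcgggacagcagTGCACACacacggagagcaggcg
Slc30a1, chr1:191906531-191906830, plus strand: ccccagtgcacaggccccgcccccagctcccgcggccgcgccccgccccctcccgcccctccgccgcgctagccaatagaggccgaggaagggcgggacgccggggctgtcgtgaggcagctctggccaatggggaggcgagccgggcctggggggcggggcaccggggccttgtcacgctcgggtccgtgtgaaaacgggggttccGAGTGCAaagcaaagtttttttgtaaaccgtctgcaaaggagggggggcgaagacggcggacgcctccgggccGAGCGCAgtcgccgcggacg

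The Mt2 window held 4 matches, that of Mt1 held 3, that of Slc30a1 held 2 and that of Mt3 held 1. Among all 32851 promoter windows of the same length, 0.517% held at least 4 matches, 1.97% at least 3, 7.11% at least 2 and 25.7% at least 1. The Slc30a4 window held 3, the Slc30a5 window and the first Slc30a3 window 1 each, and those of Mtf1, Slc30a7 and Slc30a9 had none of these letters. The Mt2 window also held 1 match to the antioxidant response element core TGACNNNGC, from base -79 to base -71, where base -1 is the last before the start. Slc30a1 and Slc30a5 held 1 such match each, against 12.4% of all windows with at least 1. The letters TATAAA occurred in the first Slc30a3 window and in no other member window, and in 13.6% of all windows. These matches describe the sequence only. Bases outside the windows were not searched, so letters absent from a window can still lie in the promoter of that gene. Whether the annotated starts are those used in brain was not tested, and positions hold only relative to them.

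The arrays wild type 1, knockout 2 and knockout 3 each stood apart from the others. Wild type 1 had a median signal of 192.5, against 238.2 to 278.3 in the knockouts and 240.3 in wild type 2, and 24.5% of its probe sets lay below the offset of 49.6 that was added before taking logs. Knockout 2 was nearly without signal for the cerebellar genes Pcp2, at 185.8, and Gabra6, at 87.6, where the other arrays had at least 22260 and 6938. The dimmest 40% of probe sets lay at a mean signal of up to 142.8, called the dim limit here. Melanotransferrin itself (Meltf) read 80.7 to 155.9 in the knockouts and 146.5 and 228.7 in the wild types, so it was dim, overlapped between the groups and does not check the labels. Knockout 3 stood apart in the pituitary markers, whose summed signal was highest there at 11703.6, against 997.0 and 1067.2 in the wild types. The mean log2 level of that list was 1.9 in knockout 3, from -0.60 to 0.26 in the other knockouts, and -0.48 and -0.57 in the wild types. Wild type 1 was the highest or the lowest of the 6 arrays for 12 of the 17 member probe sets, or 70.6%, and for 45.9% of all probe sets.

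No metallothionein or zinc transporter passed the test of knockout against wild type. The test was limma over all 45037 probe sets on log2(signal + 49.6), with Benjamini-Hochberg adjustment and a threshold of 0.05. Of the 17 member probe sets 0 passed, as did 0.0% of all probe sets, and the adjusted p of the members ran from 0.738 to 0.991. At an unadjusted p below 0.05 there were 2, Slc30a3 above wild type and Slc30a9 below it, which is 11.8% of the members beside 6.76% of all probe sets. Over all probe sets that level was reached by 4.92% on the higher side and 1.84% on the lower side. Log2 fold changes, knockout minus wild type, ran from -0.40 to 0.55, with 10 above 0 and 7 below, beside 60.3% of all probe sets above 0. Their median was 0.085, and that of all probe sets was 0.078.

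**Figure D1:**
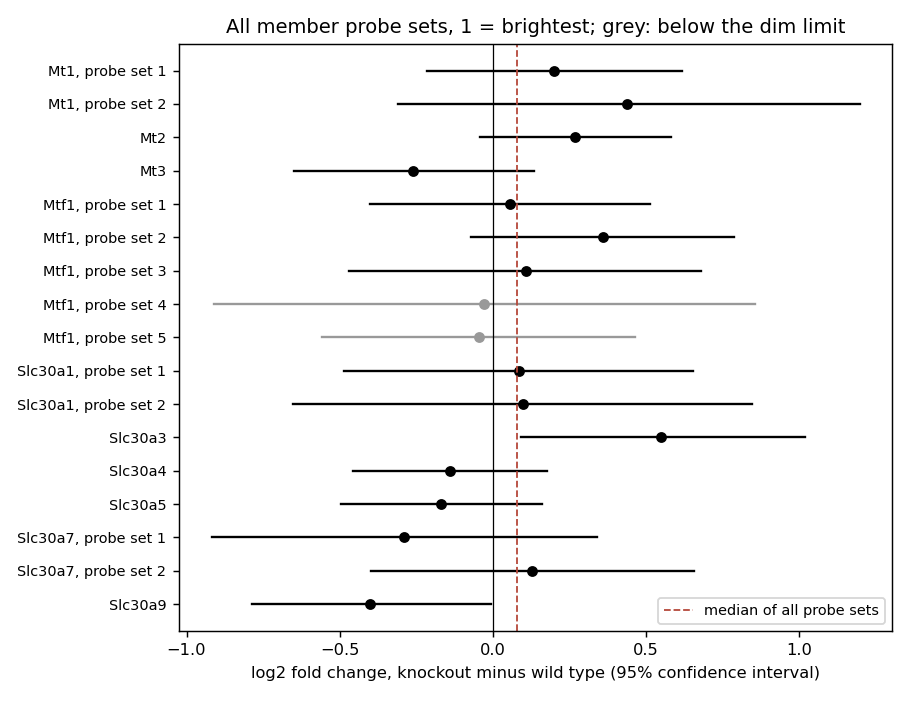
Log2 fold change of each member probe set, knockout minus wild type (points), with its 95% confidence interval (lines), for 4 knockout and 2 wild-type arrays. The dashed line is the median of all probe sets, 0.078, grey marks the 2 Mtf1 probe sets below the dim limit, and only the intervals of Slc30a3 and Slc30a9 leave out 0.

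Of the metallothioneins, Mt2 separated the groups. Its signal was 17702.6, 17819.7, 20480.7 and 17626.7 in knockouts 1 to 4, against 15268.6 and 15156.7 in wild types 1 and 2. Every knockout lay above both wild types, and the wild types differed by a factor of only 1.01. The means were 18407 ± 1385 in knockouts and 15213 ± 79.1 in wild types (SD, n = 4 and 2), a 1.21-fold difference. The log2 fold change was 0.27 ± 0.14 (SE), with a 95% interval of -0.042 to 0.58 (limma adjusted p = 0.743). The exact 2-sided permutation p was 0.0667, the smallest that 15 splits of 4 against 2 arrays can give.

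On the values as deposited, the Mt2 difference lay between 0.22 and 0.29 with any array left out. Arrays were not left out of the median-centred or quantile-normalised values, so whether it rested on 1 array there was not tested. The Mt2 difference did depend on scaling. Median centring of each array took the overall median to -0.14 and Mt2 to 0.057. Quantile normalisation gave 0.26 with an unadjusted limma p of 0.0439, and Mt2 and Slc30a3 were then the 2 members below 0.05. Groups that do not overlap were common, at 16.1% of all probe sets, with 11.3% higher and 4.81% lower in the knockout. Among the members there were 3 of 17, all higher in the knockout: Mt2, Slc30a3 and 1 of the 5 Mtf1 probe sets.

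Mt1, the close relative of Mt2 that lies next to it on chromosome 8, did not separate the groups. Their starts lie 6471 bases apart, and that of Mt3 20011 bases before that of Mt2. Its bright probe set had 29197.4, 26281.9, 34143.7 and 35326.3 in knockouts 1 to 4, against 24405.3 and 29740.3 in wild types 1 and 2. Knockouts 1 and 2 lay between the wild types, and knockouts 3 and 4 above both. The means were 31237 ± 4238 in knockouts and 27073 ± 3772 in wild types (SD, n = 4 and 2). The log2 fold change of 0.20 had a 95% interval of -0.21 to 0.62 (limma adjusted p = 0.83, exact permutation p = 0.267), and it was 0.061 without wild type 1 and -0.011 after median centring. Its identifier ends in _s_at, a suffix the manufacturer gives where probes match more than 1 transcript. The annotation names only Mt1, and whether transcripts of another gene add to the signal was not tested.

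The second Mt1 probe set was far dimmer and noisier. It read 158.4, 227.7, 258.6 and 277.4 in knockouts 1 to 4, against 134.7 and 174.1 in wild types 1 and 2. Knockout 1 lay between the wild types and the other 3 knockouts above both. Its log2 fold change was 0.44 ± 0.34 (SE, limma adjusted p = 0.802). Both Mt1 probe sets were lowest in wild type 1 and highest in knockout 4.

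Mt3, the metallothionein of the nervous system, had its highest value in wild type 1. It read 6379.8, 8114.8, 6963.6 and 7959.4 in knockouts 1 to 4, against 10645.1 and 7197.9 in wild types 1 and 2. Wild type 1 was the highest of all, while wild type 2 lay among the knockouts. The means were 7354 ± 826.0 in knockouts and 8922 ± 2438 in wild types (SD, n = 4 and 2), a log2 fold change of -0.26 with a 95% interval of -0.65 to 0.14 (limma adjusted p = 0.784). Leaving out wild type 1 gave 0.024, leaving out wild type 2 gave -0.54, and leaving out knockout 2 and wild type 1 together gave -0.025.

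**Figure D2:**
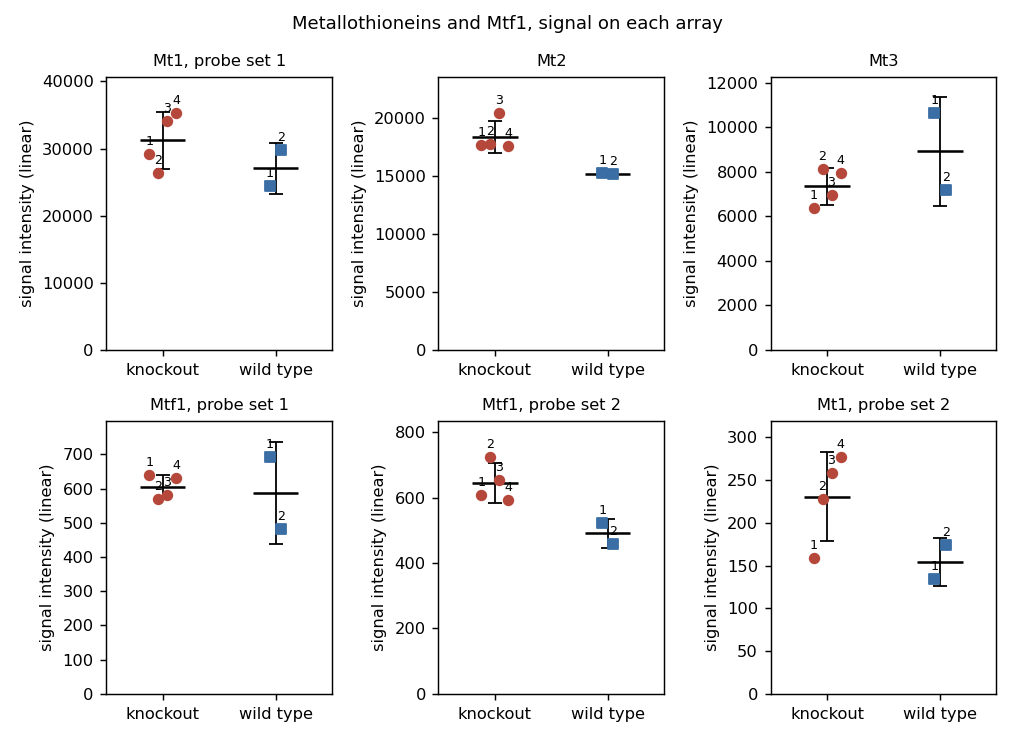
Signal intensity (linear axis from 0) of Mt1, Mt2, Mt3 and the 2 brightest Mtf1 probe sets on each array, with the dimmer Mt1 probe set last. Circles are knockouts 1 to 4, squares wild types 1 and 2, bars the mean ± SD. The Mt2 groups do not overlap, and for Mt3 wild type 1, at 10645.1, lies above the other 5 arrays.

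Ratios between the metallothioneins on the same array do not depend on a factor by which a whole array is scaled. Quantile normalisation is not such a factor, and the ratios were not recomputed under it. Probe sets differ in response, so a ratio shows only how it varies between arrays, and these ratios were chosen after the values were seen and were not tested. The ratio of the Mt2 signal to the Mt3 signal was 2.77, 2.20, 2.94 and 2.21 in knockouts 1 to 4, against 1.43 and 2.11 in wild types 1 and 2. All knockouts lay above both wild types, 2 of them narrowly, and the mean log2 difference of 0.53 was 0.25 without wild type 1. The ratio of Mt1 to Mt3 was 4.58, 3.24, 4.90 and 4.44 in the knockouts, against 2.29 and 4.13 in the wild types. Knockout 2 lay between the wild types, and the mean log2 difference of 0.46 was 0.037 without wild type 1. The ratio of Mt2 to Mt1 ran from 0.499 to 0.678 in the knockouts and was 0.626 and 0.510 in the wild types, so the groups overlapped.

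**Figure D3:**
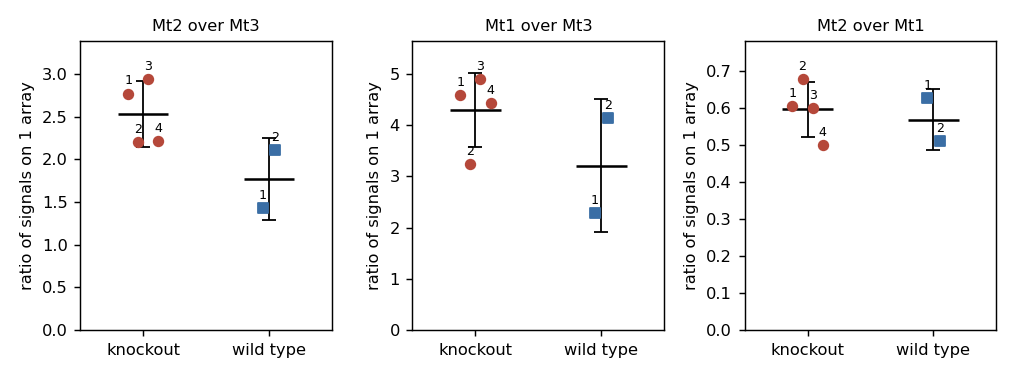
Ratio of the signals of 2 metallothioneins on the same array (linear axis from 0), for Mt2 over Mt3, Mt1 over Mt3 and Mt2 over Mt1. Circles are knockouts 1 to 4, squares wild types 1 and 2, bars the mean ± SD. Mt2 over Mt3 lies from 2.20 to 2.94 in the knockouts and at 1.43 and 2.11 in the wild types.

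The Mtf1 probe sets varied in whether the groups overlapped, but the differences between probe sets were not tested. The brightest read 639.0, 568.7, 582.5 and 631.4 in knockouts 1 to 4, against 693.8 and 482.8 in wild types 1 and 2. All knockouts lay between the wild types, and the log2 fold change was 0.057 ± 0.21 (SE, 95% interval -0.40 to 0.51, limma adjusted p = 0.965). The second brightest read 607.7, 725.6, 653.5 and 592.5 in the knockouts, against 523.1 and 459.5 in the wild types. Here all knockouts lay above both wild types, with means of 644.8 ± 59.8 in knockouts and 491.3 ± 45.0 in wild types (SD, n = 4 and 2), 1.28-fold apart. Its log2 fold change of 0.36 had a 95% interval of -0.070 to 0.79 (limma adjusted p = 0.746), and it lay between 0.27 and 0.44 with any array left out and at 0.15 after median centring.

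The other Mtf1 probe sets added no separation. Signals of the third ran from 375.4 to 634.5 in the knockouts and were 381.4 and 492.9 in the wild types, a log2 fold change of 0.11. Both dimmest Mtf1 probe sets stayed at or below 86.5 on every array, under the dim limit. The remaining 15 member probe sets lay above that limit.

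Slc30a1, the plasma membrane exporter and with the metallothioneins the best known target of Mtf1, varied more among knockouts than between groups. Its bright probe set read 3549.8, 3602.3, 2906.1 and 1777.0 in knockouts 1 to 4, against 2963.7 and 2435.9 in wild types 1 and 2. Knockout 4 was the lowest of all and knockouts 1 and 2 the highest, a 2.03-fold range within the knockouts. The log2 fold change was 0.085 with a 95% interval of -0.48 to 0.65 (limma adjusted p = 0.957), and it was 0.31 without knockout 4 and -0.026 without knockout 2. The dimmer one ran from 230.8 to 412.4 in the knockouts and was 208.1 and 414.4 in the wild types. Knockout 4 was the lowest knockout on both probe sets. On the same array the bright Mt1 probe set had its highest value and Mt2 was the lowest of the knockouts.

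Slc30a3, which loads zinc into the synaptic vesicles of glutamatergic neurons, had the largest positive fold change among the members. It read 2689.2, 3228.7, 2683.1 and 2507.1 in knockouts 1 to 4, against 1400.1 and 2482.7 in wild types 1 and 2. All knockouts lay above both wild types, but wild type 2 was within 1 SD of the knockout mean, and only wild type 1 was far below. The means were 2777 ± 312.7 in knockouts and 1941 ± 765.5 in wild types (SD, n = 4 and 2), a log2 fold change of 0.55 with a 95% interval of 0.093 to 1.02. The limma p was 0.0233 unadjusted and 0.738 adjusted, and the exact permutation p was 0.0667. The log2 fold change was 0.15 without wild type 1, 0.96 without wild type 2, 0.48 without knockout 2, and 0.079 without both knockout 2 and wild type 1.

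Knockout 2, highest for Slc30a3, was the array nearly without cerebellar signal. On that array the list of forebrain excitatory neuron markers also had its highest level, 0.29, against -0.21 to 0.089 in the other knockouts and -0.12 and 0.035 in the wild types. A list level is the mean log2 value of its genes relative to each gene's own mean and to all genes on the array. The part of tissue content in the Slc30a3 values was not tested.

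Slc30a9, a mitochondrial zinc transporter, had the most negative fold change. It read 3969.7, 3874.6, 4226.0 and 4635.3 in knockouts 1 to 4, against 6881.1 and 4396.2 in wild types 1 and 2. Wild type 2 lay among the knockouts and wild type 1 above all arrays, so the groups overlapped. The means were 4176 ± 340.0 in knockouts and 5639 ± 1757 in wild types (SD, n = 4 and 2), and the log2 fold change was -0.40 with a 95% interval of -0.79 to -0.0068. The limma p was 0.0468 unadjusted and 0.738 adjusted, and the exact permutation p was 0.133. Without wild type 1 the log2 fold change was -0.077, and without wild type 2 it was -0.72.

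The transporters of endosomes and the secretory pathway shared the high value in wild type 1. Slc30a4, found on endosomes and lysosomes, read 2872.0, 3099.8, 3136.0 and 3279.1 in the knockouts, against 3948.7 and 2950.0 in the wild types. Slc30a5, which supplies zinc to enzymes of the secretory pathway, read 1768.1, 1771.9, 1627.6 and 1618.9 in the knockouts, against 2199.1 and 1659.2 in the wild types. For both, wild type 1 was the highest array and wild type 2 lay among the knockouts. The log2 fold changes were -0.14 for Slc30a4 and -0.17 for Slc30a5 (limma adjusted p = 0.848 and 0.822), and 0.067 and 0.030 without wild type 1.

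Slc30a7, a zinc transporter of the Golgi, had log2 fold changes of opposite sign on its 2 probe sets, a difference that was not tested. The brighter read 760.9, 671.3, 507.3 and 760.7 in the knockouts, against 1189.8 and 569.2 in the wild types. Wild type 1 was again the highest array and wild type 2 lay among the knockouts. Its log2 fold change was -0.29 ± 0.28 (SE), and 0.21 without wild type 1. The dimmer read 366.0, 453.5, 465.5 and 476.7 in the knockouts, against 349.1 and 448.7 in the wild types, with wild type 1 the lowest array and a log2 fold change of 0.13. The limma adjusted p was 0.840 for the brighter and 0.920 for the dimmer.

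**Figure D4:**
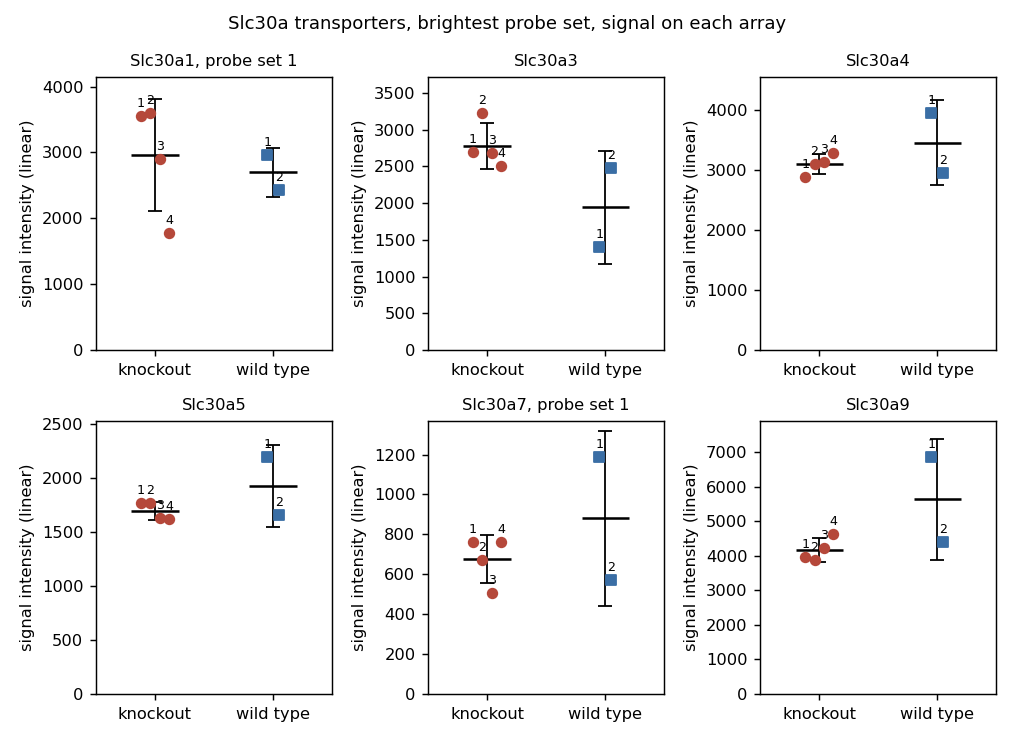
Signal intensity (linear axis from 0) of the brightest probe set of each Slc30a gene on each array. Circles are knockouts 1 to 4, squares wild types 1 and 2, bars the mean ± SD. Wild type 1 is the highest array for Slc30a4, Slc30a5, Slc30a7 and Slc30a9 and the lowest for Slc30a3, while wild type 2 lies within the knockout range for Slc30a1, Slc30a4, Slc30a5, Slc30a7 and Slc30a9.

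Leaving out either wild type showed how far the set rested on 1 mouse. With wild type 1 absent, the log2 fold changes of the brightest probe sets were 0.061 for Mt1, 0.024 for Mt3 and 0.30 for Mtf1. For the transporters they were 0.22 for Slc30a1, 0.15 for Slc30a3, 0.067 for Slc30a4, 0.030 for Slc30a5, 0.21 for Slc30a7 and -0.077 for Slc30a9. With wild type 2 absent they were 0.35 for Mt1, -0.54 for Mt3 and -0.18 for Mtf1. The transporters were then at -0.054 for Slc30a1, 0.96 for Slc30a3, -0.35 for Slc30a4, -0.37 for Slc30a5, -0.79 for Slc30a7 and -0.72 for Slc30a9. Mt2, on the values as deposited, was nearly the same in both cases, at 0.28 when wild type 1 was absent and 0.27 when wild type 2 was.

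**Figure D5:**
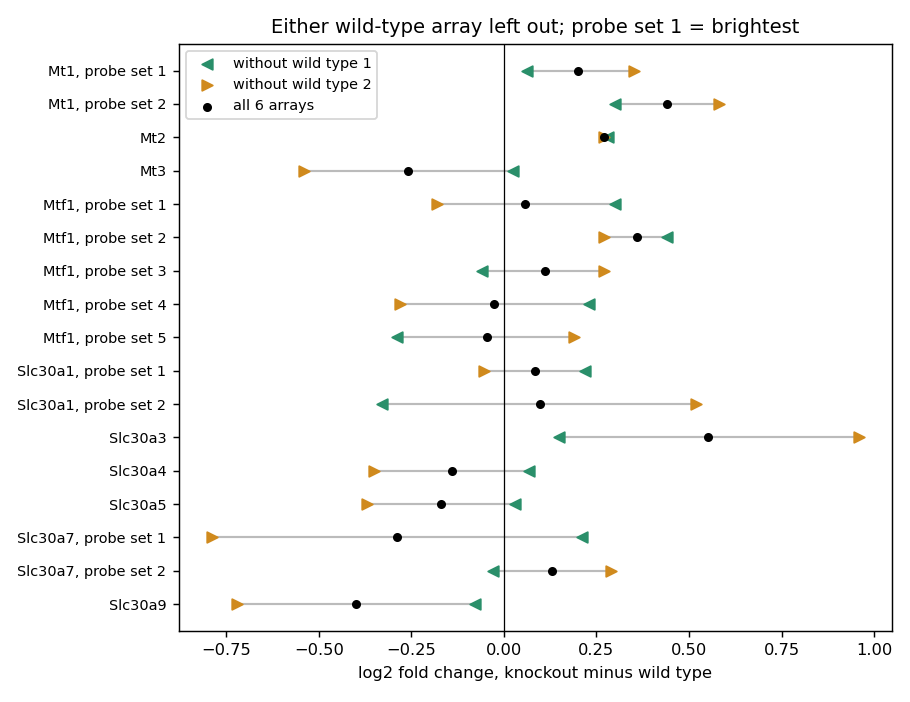
Log2 fold change of each member probe set, knockout minus wild type, with all 6 arrays (circles), without wild type 1 (left-pointing triangles) and without wild type 2 (right-pointing triangles). The 3 values of Mt2 lie from 0.27 to 0.28, whereas those of Slc30a3 lie from 0.15 to 0.96 and those of Slc30a9 from -0.72 to -0.077.

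The likeness of patterns across the 6 arrays was measured as the root-mean-square difference of log2 values, each gene centred on its own mean, against 13299 other genes above the dim limit. Mt1 and Mt2 differed by 0.16, and 1119 genes were closer to Mt1 than Mt2 was. Mt3 lay closest, among the members, to Slc30a4 at 0.11, with 0.14 for Slc30a9 and 0.15 for Slc30a5, the genes that share the high value in wild type 1. The genes nearest to Mt1 were Snrnp70, Srpk3 and Xaf1 at 0.039, 0.043 and 0.051, and those nearest to Mt2 were Rsph9, Ndnf and Tarsl2 at 0.030, 0.031 and 0.046. Mt3 was nearest to Eid2, Dusp3 and Usp20 at 0.030, 0.034 and 0.040. Slc30a3 was nearest to Pa2g4, H2-Oa and Slc17a3 at 0.074, 0.078 and 0.080. With 6 arrays and this many genes, close matches are a description only.

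Other genes of zinc handling were measured on the same arrays. Of 25 such genes measured, among them the Slc39a importers and the remaining Slc30a transporters, 9 were higher and 16 lower in the knockout on their brightest probe set, beside 53.6% higher over all genes. None passed in limma over all probe sets, and 1 had an unadjusted p below 0.05, beside 6.49% of the 18193 genes. That count was 5 after median centring, 2 after quantile normalisation and without knockout 4, 4 without wild type 2, and 0 with no intensity trend, without wild type 1, without knockout 2 and without both of these. The 1 gene was the importer Slc39a12, at 1979.6, 1578.5, 2256.6 and 2348.5 in knockouts 1 to 4, against 3589.8 and 2364.4 in wild types 1 and 2. Knockout 4 and wild type 2 were almost level, the log2 fold change was -0.52, and without wild type 1 it was -0.22. Slc30a6, the partner of Slc30a5 in the early secretory pathway, ran from 878.0 to 989.5 in the knockouts and was 1199.8 and 796.5 in the wild types, again with wild type 1 highest and with wild type 2 here the lowest. Signals of Mt4, Slc30a2, Slc30a8, Slc39a4 and Slc39a5 lay below the dim limit.

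Genes that share inducers with Mt1 and Mt2 were set beside them. These lists were chosen with earlier results of these data known, so their counts are a description only. Of 12 genes induced by glucocorticoids 11 were higher in the knockout, beside 53.6% of all genes. Of these, 5 had an unadjusted limma p below 0.05, beside 6.49% of all genes in either direction, and 0 passed. The 5 were Per1, Cdkn1a, Sgk1, Nfkbia and Pdk4, with log2 fold changes of 0.67, 0.61, 0.68, 0.43 and 0.46, of which Sgk1 was 0.26 without wild type 2 and Pdk4 0.24 without wild type 1. The count of 5 was 1 after median centring and 3 without knockout 2 and wild type 1 together. The list had a median log2 fold change of 0.40, and its level was 0.14, 0.21, -0.11 and 0.14 in knockouts 1 to 4, against -0.079 and -0.29 in wild types 1 and 2. Knockout 3, with the highest Mt2 signal, had the lowest level of this list among the knockouts, and lay below wild type 1. Of 10 genes induced by metals and oxidants 4 were higher and 6 lower. Only Gclc, the catalytic subunit of glutamate-cysteine ligase in glutathione synthesis, had an unadjusted limma p below 0.05, at 0.0499 (adjusted p = 0.738). Its log2 fold change was -0.28, and -0.16 without wild type 2. Among the alternatives that kept both wild types, its p stayed below 0.05 only after median centring and with the larger offset. The part of these inducers in the metallothionein values was not tested.

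Markers of cell types were set beside the members, and none of the neuron, astrocyte and oligodendrocyte markers measured lay below the dim limit. These lists too were chosen with earlier results of these data known. Of 11 astrocyte markers, from the cells that make most Mt1 and Mt2, 5 were higher and 6 lower, with Gfap at -0.63 and Aqp4 at -0.64 on the log2 scale the 2 with an unadjusted p below 0.05, beside 6.49% of all genes. Without wild type 1 these were -0.38 and -0.43 and no marker of the list had such a p, whereas without wild type 2 there were 6. The summed signal of the list ran from 195101 to 218243 in the knockouts and was 162122 and 215711 in the wild types. Its level was 0.021, -0.13, -0.0067 and -0.12 in knockouts 1 to 4, against 0.12 in both wild types. By level every knockout thus lay below both wild types, whereas by summed signal the groups overlapped, and neither was tested. Esam among 8 endothelial genes and Lhb among 6 pituitary genes were at -0.50 and 1.17, each with an unadjusted p below 0.05. For Esam the p was above that level with array weights, with no intensity trend, and without knockout 2, knockout 4 or either wild type. Lhb lay below the dim limit, so it was not tested with the dim filter, and its log2 fold change was 0.62 with the larger offset and 1.55 with the smaller. Its p was 0.0725 without wild type 1. In the other lists no gene reached that level as reported, but after median centring 3 cerebellar, 3 meningeal or smooth muscle, 1 oligodendrocyte and 1 microglial marker did, and 3 cerebellar markers did so without knockout 2. The smallest p-values there belonged to Tbr1 (0.24) and Neurod2 (0.19) of forebrain neurons, Calb1 (-0.45) and Cbln1 (-1.44) of cerebellum, Mag (-0.30) and Mog (-0.23) of oligodendrocytes and Aif1 (-0.29) and P2ry12 (-0.36) of microglia, as log2 fold changes. They also belonged to Aqp1 (-0.46) and Clic6 (-0.24) of choroid plexus, Lum (-0.51) and Igf2 (-0.35) of meninges, and Hba-a1 (0.26) and Alas2 (-0.17) of blood. Genes higher and lower in the knockout numbered 6 and 1 for forebrain neurons, 1 and 4 for oligodendrocytes and 4 and 4 for microglia. The numbers were 3 and 4 for choroid plexus, 3 and 5 for meninges and smooth muscle, and 1 and 1 for blood. They were 3 and 5 for endothelium and 6 and 0 for pituitary, where knockout 3 had the highest list level, 1.9. Over all genes 53.6% were higher. Knockout 2 bears on several of the log2 fold changes named. All 10 cerebellar markers were lower in the knockout, with a list level of -2.9 in knockout 2, against 0.14 to 0.66 in the other knockouts and 0.78 and 0.77 in the wild types. Without knockout 2 the log2 fold changes were -0.67 for Cbln1, -0.29 for Calb1, -0.15 for Mag, -0.11 for Mog and 0.12 for Tbr1, and Cbln1 was -0.47 without knockout 2 and wild type 1 together. None of these genes passed in limma over all probe sets. The part of cell content in the member values was not tested.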

How the data were processed

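Brain RNA of 4 knockout and 2 wild-type mice was measured on 1 array each, and groups came from the labels alone. The deposited values were linear signal intensities, 1 for each probe set on each array. GCOS 1.3 made them, per the submitters' processing notes. How probes were summarised and scaled is not stated in the sources at hand. Control probe sets, 64 of 45101, were dropped. The platform annotation supplied gene symbols, and in it 34945 probe sets had 1 symbol, 932 several and 9160 none, and a match by gene identifier to RefSeq on GRCm38.p6 changed 0.

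The offset 49.6, the 20th percentile of the table, was added before log2. The contrast knockout minus wild type was fitted to all 45037 probe sets in limma 3.58.1 (R 4.3.3; lmFit, then eBayes with trend), where 4 residual degrees of freedom were joined by 5.91 prior ones. Tests were 2-sided with Benjamini-Hochberg adjustment, and the intervals given are 95% confidence intervals of this fit. The fit was tested on simulated data. An exact permutation test over 15 splits was run for the brightest probe set of each gene. Precision is limited by the number of arrays, and the p-values cover variation of mice and of arrays at once. Signals of different probe sets are not compared as levels.

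Every member probe set is reported. From each other list the genes with an unadjusted p below 0.05 are named, or the 2 with the smallest p where there are none, and 3 nearest patterns for Mt1, Mt2, Mt3 and Slc30a3. The members and lists were chosen with earlier results of these data known, the glucocorticoid and astrocyte lists among them. The alternatives were quantile normalisation, median centring, offsets 4 and 0.25 times as large, a dim filter of 40%, no intensity trend, array weights, leaving out each array, and the mean over the probe sets of a gene. Leaving out knockout 2 and wild type 1 together, and the ratios between metallothioneins, were added after the values were seen. Plots were drawn in Python 3.11.15.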

Additional observations from a re-analysis of the deposited data

Results flagged for a closer look

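The Mt2 signal of knockout 3, 20480.7, stood far above those of the other 3 knockouts, which ran from 17626.7 to 17819.7. The gap to its nearest neighbour was 0.932 of the whole range of the 4 knockouts. It was the only such value among the 17 member probe sets, and chance gives about 1 in 20. Without knockout 3 the Mt2 log2 fold change was 0.22, against 0.27 with it, and every knockout still lay above both wild types. Knockout 3 was also the array with the highest pituitary markers, at a summed signal of 11703.6, against 997.0 and 1067.2 in the wild types, and the part of pituitary tissue in its Mt2 value was not tested.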

How the results depend on the processing

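Probe sets of a gene are numbered from the brightest. Over 240 recomputed log2 fold changes of the member probe sets, 207 kept the direction of the reported value and 33 did not. In each limma fit that kept both wild types, 0 members and 0 of all probe sets passed the adjusted threshold. Mt2, Slc30a3, Slc30a9, Mtf1 probe set 2 and Mt1 probe set 2 kept their direction in every alternative, Slc30a3 only at 0.079 and Slc30a9 at -0.042 without knockout 2 and wild type 1 together. Members with an unadjusted p below 0.05 in limma, 2 as reported, numbered 1 after median centring (Slc30a9) and with the larger offset (Slc30a3), 0 with no intensity trend, 0 to 6 with 1 array left out, and 0 without knockout 2 and wild type 1 together. The same count over all probe sets, 3046 as reported, was 1624 to 5336 with 1 array left out and 1568 without those arrays together. It was 2108 with the dim filter, which tested 27022 probe sets, so the share was 7.8% against 6.76% as reported. After median centring it was 3943, or 8.76%. Of those 3046, 72.8% were higher in the knockout, against 54.0% after quantile normalisation, 20.3% after median centring and 82.9% with no intensity trend.

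After median centring the sign turned for Mt1 probe set 1 (-0.011), Mtf1 probe sets 1 (-0.16) and 3 (-0.11), Slc30a1 probe sets 1 (-0.13) and 2 (-0.12), Slc30a7 probe set 2 (-0.083) and Neurod2 (-0.026). Quantile normalisation turned Slc30a1 probe set 2 (-0.10). The dim Mtf1 probe set 4 turned with the larger offset (0.0045) and with array weights (0.047). Without knockout 2 and wild type 1 together the sign turned for Mtf1 probe sets 3 (-0.074) and 4 (0.41), Slc30a1 probe set 2 (-0.43), Slc30a4 (0.066), Slc30a5 (0.0093), Slc30a7 probe sets 1 (0.21) and 2 (-0.045), Neurod2 (-0.033), Mog (0.0089), Hba-a1 (-0.37) and Alas2 (0.13). With any 1 array left out the ranges that crossed 0 were -0.54 to 0.024 for Mt3, and for Mtf1 -0.18 to 0.30 on probe set 1, -0.060 to 0.27 on 3, -0.28 to 0.23 on 4 and -0.29 to 0.19 on 5. They were -0.054 to 0.31 for Slc30a1 probe set 1, -0.33 to 0.52 for 2, -0.35 to 0.067 for Slc30a4, -0.37 to 0.030 for Slc30a5, -0.79 to 0.21 for Slc30a7 probe set 1 and -0.030 to 0.29 for 2. For Neurod2 the range was -0.028 to 0.40, for Hba-a1 -0.23 to 0.76, for Alas2 -0.68 to 0.33, and for the log2 ratio of Mt2 to Mt1 -0.079 to 0.22. The cause was not tested. With 1 wild type left out the lone array is assumed to vary like the knockouts.

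No paired analysis was possible because the labels give no replicate numbers shared between knockout and wild type.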
